A study of Homo sapiens with 9 samples.

Results

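Untreated Hep3B cells are the baseline of this study, and 3 of its 9 arrays were hybridised with their RNA. The 3 arrays were chosen by their sample titles, which name them as untreated; no measured value entered that choice. Hep3B is an established human hepatocellular carcinoma line. The untreated cells received neither the nonsense siRNA nor the siRNA against YAP that the other 6 arrays represent, and the labels give 24 h of growth in full medium for all cells and a further 24 h for transfected ones; how long the untreated cells were kept is not given in the sources used here. Total RNA was labelled with biotin and hybridised to human gene arrays. Each title starts with HUH, whereas the other labels name the cells Hep3B; the latter name was followed here. The labels do not say whether the 3 samples came from separate cultures, so the SD given with each mean measures the spread between these samples, which may be technical. All 3 come from a single line, and nothing here extends to other hepatomas or to liver.

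A hepatocyte secretes most of the plasma proteins, among them albumin, transferrin, fibrinogen and the apolipoproteins, under a set of liver-enriched transcription factors. The fetal liver cell, or hepatoblast, makes alpha-fetoprotein in addition and can form either hepatocytes or the biliary cells that line bile ducts. Hepatoma lines often keep part of the hepatocyte programme together with fetal genes, and lose much of the enzyme set of the adult liver.

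Single-gene probe sets gave 18417 genes, ranked by their mean log2 signal over the 3 untreated arrays, with rank 1 the highest and a percentile of 100 at the top. Probe sets differ in how well they bind their target, so a rank orders signals on this array and does not order transcript amounts of different genes. The median over genes was 7.32, and Pearson's r between arrays, across genes, which are not independent replicates, was 0.996, 0.993 and 0.995. In RNA from a whole culture, fewer cells that make a transcript and less of it per cell cannot be told apart.

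A pair of reference sets shows what an array signal looks like for genes that liver cells do not normally use. The first is 341 olfactory receptor genes, which belong to sensory neurons of the nose. Their 95th percentile was 6.70, 6.72 and 6.80 on the 3 arrays, called the olfactory bound here. The second is 115 genes of taste receptors, keratin-associated proteins of hair and beta-defensins, with a 95th percentile of 7.86, 7.85 and 8.10, called the wide bound. Over all genes, 12656 (68.7%) exceeded the olfactory bound on all 3 arrays and 5105 (27.7%) exceeded the wide bound, so the choice of reference moved the count by more than 1.5 times. The 67 keratin-associated protein genes were the brightest part of the second set, with a median of 6.85 against 6.24 for 24 taste receptor genes and 6.13 for 24 beta-defensin genes. Of 39 genes of lung, kidney, brain, skeletal muscle, squamous epithelium and pancreas, 24 exceeded the olfactory bound and 0 the wide one, and their highest mean was 7.60. Signals between the bounds and up to 7.60 thus occurred among genes of unrelated organs, while those from there to the wide bound lay over these 39 genes but within the second reference set. In what follows a gene over the wide bound on all 3 arrays is called bright-range, and one that did not exceed the olfactory bound on all 3 is called dim. The median of the 39 genes was 6.89.

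**Figure D1:**
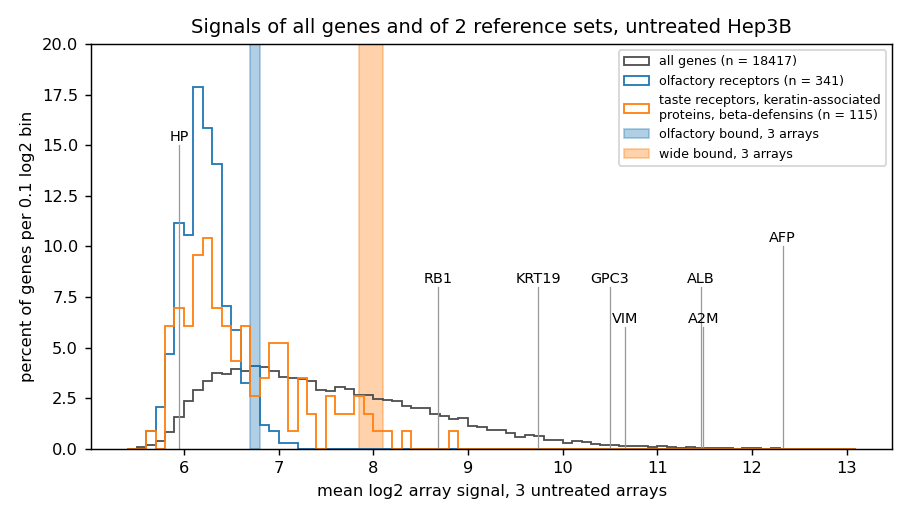
Distribution of mean log2 array signal over the 3 untreated arrays (x axis) as the percent of genes per bin of 0.1 (y axis), for all 18417 genes, 341 olfactory receptor genes and 115 genes of the second reference. Shaded bands span the olfactory bound (6.70 to 6.80) and the wide bound (7.85 to 8.10) of the 3 arrays, grey lines mark single genes, and ALB, AFP and A2M lie far to the right of both bands while HP lies below them.

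The sequences upstream of 3 neighbouring genes of the albumin family are shown because the 3 genes share a chromosomal neighbourhood and a common ancestry but lay far apart in signal. They are ALB (albumin), AFP (alpha-fetoprotein) and AFM (afamin, a vitamin E-binding plasma protein), in that order on chromosome 4. Each line gives the 150 bases before the RefSeq transcription start on the plus strand of GRCh38.p14, 5′ to 3′: chr4:73404137-73404286 for ALB, chr4:73436071-73436220 for AFP and chr4:73481595-73481744 for AFM. Capitals mark GTTAAT, a core of sites bound by HNF1 factors, and TATAAA, the TATA box, each searched on both strands.
ALB: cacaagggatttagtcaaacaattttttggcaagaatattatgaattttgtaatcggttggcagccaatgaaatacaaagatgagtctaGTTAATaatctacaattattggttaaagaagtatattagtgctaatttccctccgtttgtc
AFP: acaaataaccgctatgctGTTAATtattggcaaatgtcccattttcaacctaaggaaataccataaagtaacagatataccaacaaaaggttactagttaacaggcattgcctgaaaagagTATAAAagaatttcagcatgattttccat
AFM: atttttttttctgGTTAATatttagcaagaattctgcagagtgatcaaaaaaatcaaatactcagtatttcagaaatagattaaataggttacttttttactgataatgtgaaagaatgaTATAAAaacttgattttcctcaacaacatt
GTTAAT begins 61 bases before the start in ALB, 132 in AFP and 137 in AFM. TATAAA begins 29 bases before the start in AFP and 30 in AFM, and these letters are not in the ALB stretch.

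AFP and ALB were among the highest signals of the ranked genes. AFP, the fetal counterpart of albumin, measured 12.36, 12.34 and 12.28 on the 3 arrays, a mean of 12.32 ± 0.041 (SD, n = 3) at rank 8. ALB, the main carrier protein of adult plasma, measured 11.46, 11.45 and 11.47, a mean of 11.46 ± 0.011 (SD, n = 3) at rank 50. AFM, the next gene along, measured 6.32, 6.35 and 6.24 and was dim on every array, at rank 16239. All 3 promoters above hold GTTAAT, the dim gene included. All arrays placed the 3 genes in the same order.

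Across the RefSeq promoter windows, which run from 250 bases before to 50 after a start, GTTAAT was in 1000 of the 14239 measured genes with a window (7.02%). It was in 6 of 86 windows among the 100 brightest genes (6.98%), in 8 of 27 among the hepatocyte plasma protein genes (29.6%), and in 2 of 27 among genes of the unrelated organs (7.41%). Those 8 were FGB, ALB, FGA, SERPINA1, APOH, SERPINA6, AFM and SERPINA7, and their ranks ran from 23 for FGB to 17457 for SERPINA7. The motif thus stood in front of very bright and of dim plasma protein genes alike. TATAAA was in 11.9% of all windows, 12.8% of the 100 brightest, 18.5% of the plasma protein genes and 37.0% of the genes of unrelated organs, so its share was highest in the last set. CAAAGTCCA, a core of sites bound by HNF4 factors, was in 0.471% of all windows and in 1 of the 27 plasma protein windows. A match of letters is a description and not a bound site.

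The 30 brightest genes were mostly genes that every growing cell uses, with 3 genes of secreted liver products among them. The highest was ENO1, a glycolytic enzyme, at 12.95, 13.01 and 13.02. GAPDH at rank 2 and LDHA at rank 12 are also enzymes of glucose breakdown. Cytoskeletal genes followed, namely ACTG1, ACTB, TUBB4B, TUBB, TMSB10 and KRT8, with KRT8, a keratin of simple epithelia, at rank 5. Genes of protein synthesis were EEF1A1, EIF1 and 5 ribosomal protein genes (RPS3, RPL5, RPS28, RPL12 and RPS2). Chaperone and folding genes were HSPA8, HSP90AB1, HSP90B1 and P4HB. The secreted products were AFP, FGB (the fibrinogen beta chain, rank 23) and FN1 (fibronectin, rank 24), and ALDH1A1, which makes retinoic acid and oxidises aldehydes, stood at rank 28. PTMA, SLC38A2, S100A10, DAD1, ATP5F1B and FAF2 complete the set.

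For 9 of these 30 genes the annotation lists more than 1 probe set, and in 5 of them the probe sets differed by more than 1 on the log2 scale. FAF2, which takes part in the disposal of misfolded proteins, reached rank 3 with a probe set at 12.78 while its other probe set read 9.50. The other 4 were PTMA (12.21 against 7.80 for its lowest), RPL12 (11.96 against 7.85), RPL5 (12.27 against 9.51) and RPS2 (11.92 against 10.67). Their ranks depend on which probe set stands for the gene, and those of ribosomal protein genes, which have near-identical processed copies in the genome, are uncertain for that reason too.

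Hepatocyte plasma protein genes spanned nearly the whole signal range. Of 41 listed, 39 were measured. Of these, 30 exceeded the olfactory bound and 22 the wide bound, against 68.7% and 27.7% of all genes, and 15 lay in the top 10% of genes. Their median signal was 8.72 where the median of all genes was 7.32. The list thus had many members among the brightest genes and 9 among the dim ones.

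Among the carriers, TF, the iron carrier transferrin, measured 11.19, 11.32 and 11.22 (rank 72). TTR, which carries thyroxine and retinol-binding protein, averaged 11.05 ± 0.055 (SD, n = 3; rank 104). RBP4, the retinol carrier itself, measured 10.52, 10.49 and 10.62 (rank 233). VTN, vitronectin, which was listed with the carriers, measured 10.28, 10.16 and 10.18 (rank 383). These 4 genes were bright-range on every array. SERPINA7, which carries thyroxine as well, was dim at 6.08, 6.11 and 6.09.

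Among the protease inhibitors, A2M, which traps proteases of many classes, measured 11.55, 11.43 and 11.48, a mean of 11.49 ± 0.062 (SD, n = 3) at rank 48. AMBP, the precursor of alpha-1-microglobulin and the inhibitor bikunin, measured 11.60, 11.62 and 11.62 (rank 38). SERPINA1, the inhibitor of neutrophil elastase, measured 9.66, 9.66 and 9.62. SERPINC1, which encodes antithrombin, was dim at 6.68, 6.59 and 6.62. The inhibitor genes thus ran from near the top of the ranked genes to the range of the olfactory receptor genes. Of 11, 6 were over the wide bound, against 27.7% of all genes.

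Bikunin circulates bound to heavy chains made by some of the ITIH genes. ITIH2 measured 10.88, 10.74 and 10.89 (rank 149). The neighbouring heavy chain genes ITIH1, ITIH3 and ITIH4 averaged 6.76, 6.69 and 6.83, all under the wide bound. ITIH2 was thus bright-range while ITIH1, ITIH3 and ITIH4 were not.

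Among the apolipoproteins, which carry lipid in plasma, APOA2 measured 11.15, 11.17 and 11.17 (rank 84) and APOB 11.05, 11.01 and 10.85 (rank 119). APOE averaged 8.88 ± 0.145, APOA1 8.80 ± 0.101 and APOC1 8.71 ± 0.077 (SD, n = 3 each). LPA, the apolipoprotein(a) gene, was dim at 6.60. Of 8 apolipoprotein genes, 5 were bright-range, against 27.7% of all genes.

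Among acute phase genes, whose products rise in plasma during inflammation, the fibrinogen genes were bright-range while others were dim. FGB measured 11.91, 11.93 and 11.98, FGA 10.87, 10.90 and 10.93, and FGG 9.23, 9.30 and 9.25. HP, which encodes the haemoglobin-binding protein haptoglobin, measured 6.06, 5.72 and 6.06, at the 2.13th percentile. CRP, the C-reactive protein gene, averaged 6.16 ± 0.014 (SD, n = 3), and LBP, which binds bacterial lipopolysaccharide, 6.41 ± 0.061 (SD, n = 3). C3, the central complement component, averaged 9.56 and ORM1, orosomucoid, 8.24, both over the wide bound. The 3 fibrinogen chains are assembled in equal numbers, and the unequal signals of their probe sets say nothing about unequal transcript amounts.

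**Figure D2:**
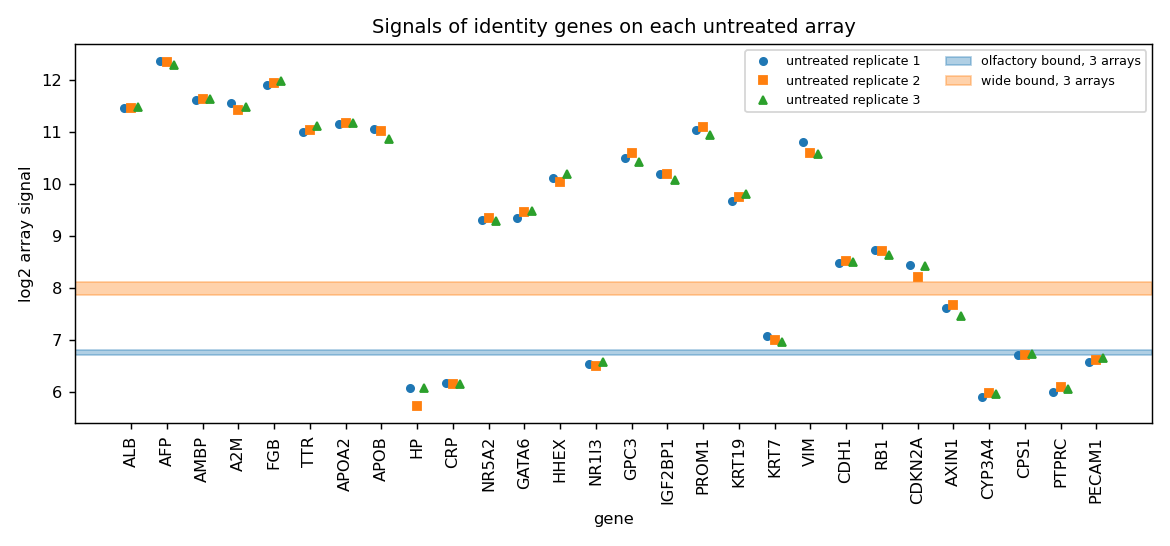
Log2 array signal (y axis) of 28 identity genes (x axis) on each of the 3 untreated arrays, with 1 point per array. Shaded bands span the olfactory and the wide bound. The 3 points of a gene lie close together, as for ALB between 11.45 and 11.47, while genes of the same class lie far apart, as for FGB and HP.

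Neighbouring genes of plasma proteins often differed in signal. These groups of neighbours were picked after their values were seen. In the SERPINA group, which encodes serine protease inhibitors on chromosome 14, SERPINA1 averaged 9.65 and SERPINA5, the protein C inhibitor gene, 8.85. The other 7 measured members lay between 6.38 for SERPINA12 and 7.79 for SERPINA6. In the APOA1 group on chromosome 11, APOA1 averaged 8.80, APOC3 7.75, APOA5 7.54 and APOA4 6.92. The 3 fibrinogen genes, which stand side by side on chromosome 4, were all bright-range. KRT8 and KRT18, the keratin pair of simple epithelia, averaged 12.67 and 11.42 beside KRT78 at 6.63. KRT18 has 2 probe sets, which averaged 11.42 and 10.78, so its value depends on the probe set chosen.

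**Figure D3:**
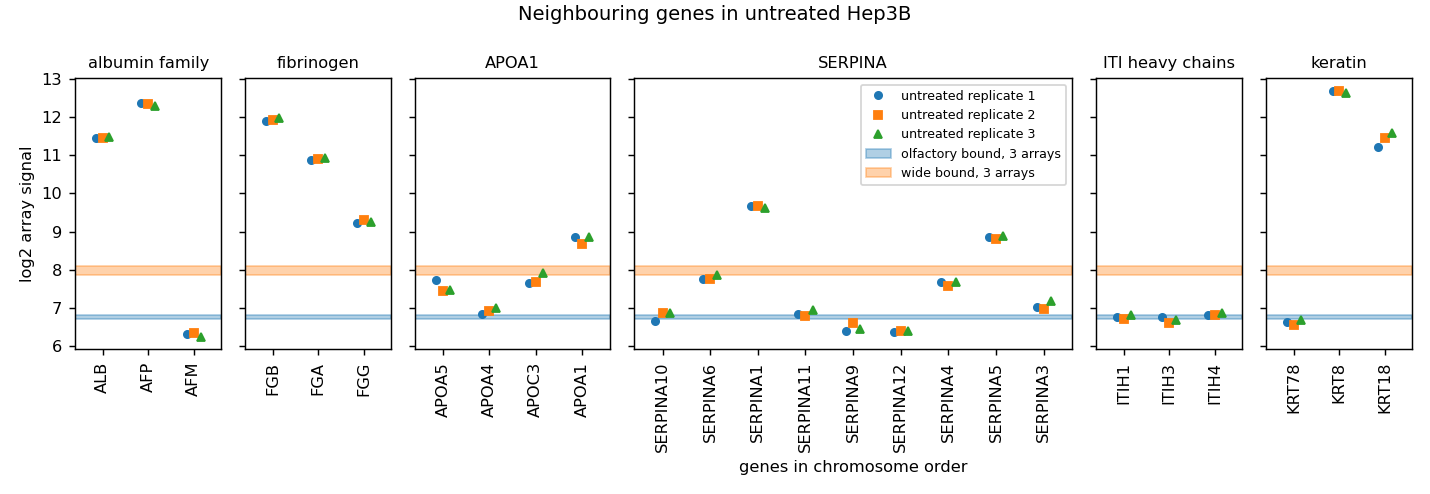
Log2 array signal (y axis) of 6 groups of neighbouring genes, drawn in chromosome order (x axis), with 1 point per untreated array and shaded bands for the olfactory and the wide bound. ALB and AFP stand beside AFM at 6.30, and SERPINA1 and SERPINA5 rise over the wide bound while the other SERPINA genes do not.

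Liver-enriched transcription factor genes were mostly bright-range. Of 18 measured, 17 exceeded the olfactory bound and 13 the wide bound, against 68.7% and 27.7% of all genes, and the median was 8.47. HNF4A, a marker given for this line, was not analysed here. HHEX, a homeobox factor of early liver, measured 10.11, 10.04 and 10.18 (rank 442). GATA6, a zinc finger factor of endoderm, measured 9.34, 9.45 and 9.47, and NR5A2, a nuclear receptor of bile acid and cholesterol genes, measured 9.30, 9.34 and 9.29. CEBPA, a leucine zipper factor of hepatocyte maturation, measured 9.07, 8.88 and 8.99. All 4 exceeded the wide bound on every array.

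The forkhead genes FOXA1, FOXA2 and FOXA3, whose products open liver enhancers, averaged 8.33 ± 0.046, 8.30 ± 0.018 and 8.09 ± 0.056 (SD, n = 3 each). All 5 hepatoblast factor genes were bright-range, against 27.7% of all genes. They were HHEX, TBX3 at 8.54, PROX1 at 8.68, ONECUT1 at 8.75 and ONECUT2 at 8.41. ONECUT1 measured 8.47, 8.92 and 8.85 and ONECUT2 8.62, 8.40 and 8.20, the widest spreads of this list. Among 4 nuclear receptor and stress factor genes of adult liver, RXRA, the shared partner receptor, averaged 8.60 and was the one over the wide bound. CREB3L3 averaged 7.64 and PPARA, the fatty acid receptor gene, 7.09. NR1I3, the xenobiotic receptor CAR, measured 6.53, 6.50 and 6.58 and was dim.

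Genes of adult hepatocyte metabolism were mostly dim. Of 37 measured, 16 exceeded the olfactory bound and 3 the wide bound, shares below the 68.7% and 27.7% of all genes, and the median was 6.70. The 3 were HGD, which breaks down homogentisate in tyrosine metabolism, at 9.75, 10.09 and 10.04, ABCC2, an export pump of the bile canaliculus, at 9.14, 9.31 and 8.99, and ASGR2, a subunit of the asialoglycoprotein receptor, at 8.90, 8.95 and 8.99. Of 6 urea cycle genes 0 exceeded the wide bound: CPS1, the entry enzyme, averaged 6.71 ± 0.010, OTC 6.13 ± 0.094, ARG1 6.36 ± 0.011 and ASS1 7.77 ± 0.090 (SD, n = 3 each). Of 9 cytochrome P450 and bile acid genes 6 were dim, among them CYP3A4, the main drug-oxidising P450, at 5.90, 5.98 and 5.96, and CYP7A1, which begins bile acid synthesis, at 6.19, 6.08 and 6.14. G6PC1 and PCK1, enzymes of glucose production, averaged 6.27 and 6.56, and TAT, which degrades tyrosine, 6.68. The bile acid importer SLC10A1, at 6.36, and the organic anion importer SLCO1B3, at 5.88, were dim as well.

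In the liver lobule, hepatocytes around the central vein and those around the portal vein use different genes. Of 12 pericentral genes, 11 exceeded the olfactory bound and 5 the wide bound, where 68.7% and 27.7% of all genes did. GLUL, glutamine synthetase, measured 10.17, 10.24 and 10.11, OAT, ornithine aminotransferase, 9.29, 9.28 and 9.45, and LGR5, a receptor that amplifies Wnt signals, 8.87, 8.72 and 8.63. TBX3 and SP5, both known Wnt target genes, averaged 8.54 and 8.05. AXIN2, a feedback target of Wnt signalling, averaged 7.08, and SLC1A2, a glutamate transporter gene, was dim at 6.33. Of 7 periportal genes measured, 2 exceeded the olfactory bound, ASS1 and CDH1, and CDH1, the E-cadherin gene, at 8.50, was the one over the wide bound. The zonation lists share ASS1, CPS1, PCK1, ARG1, G6PC1, HAL, CYP2E1 and CYP1A2 with the metabolic list, so the counts overlap.

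Fetal liver and oncofetal genes were bright-range for the most part. Of 19 measured, 17 exceeded the olfactory bound and 13 the wide bound, against 68.7% and 27.7% of all genes. In the top 10% lay 10 of them, and the median was 9.18. Those 10 include PKM, at 10.25, and ALDOA, enzymes of glucose breakdown that growing cells use widely. They were the 2 of 5 noncoding RNA and enzyme genes of the list over the wide bound, and the median of those 5 was 6.95. GPC3, a cell surface glypican used as a liver cancer marker, measured 10.49, 10.59 and 10.42 (rank 246). CD24, a surface glycoprotein of progenitor cells, measured 10.65, 10.43 and 10.44 (rank 243), and SPINK1, a trypsin inhibitor gene, 10.11, 10.07 and 10.12 (rank 451). PEG10, an imprinted gene derived from a retroelement, measured 10.59, 10.40 and 10.24 (rank 276). IGF2BP1, a fetal RNA-binding protein, measured 10.19, 10.19 and 10.08 (rank 415), and its paralogs IGF2BP2 and IGF2BP3 averaged 8.35 and 8.28. GPC3, CD24, SPINK1, PEG10 and the IGF2BP genes were bright-range on every array.

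DLK1, an imprinted hepatoblast surface gene, averaged 8.30 ± 0.088 (SD, n = 3). LIN28B, which blocks let-7 maturation, measured 8.48, 8.23 and 8.09 and missed the wide bound of 8.10 on the last array. SALL4, a stem cell factor gene, lay between the bounds at 6.99, while AKR1B10, an aldo-keto reductase gene often high in liver tumours, and REG3A were dim at 6.39 and 5.96. The IGF2 and H19 genes share their probe sets with other genes in the annotation and were not analysed here.

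Genes of the biliary and progenitor class were bright-range in 5 of 7 keratin and surface genes, in 3 of 3 transcription factor genes and in 0 of 5 transport and secreted genes. Of 15 measured, 12 exceeded the olfactory bound and 8 the wide bound, against 68.7% and 27.7% of all genes. PROM1, the stem cell surface antigen CD133, measured 11.03, 11.09 and 10.93 (rank 112), KRT19, a keratin of bile ducts, 9.67, 9.75 and 9.81, and EPCAM, an adhesion molecule of progenitor cells, 9.10, 9.12 and 9.34. SOX9, a factor of biliary cells, averaged 8.67 ± 0.057 (SD, n = 3) and SOX4 8.92 ± 0.099 (SD, n = 3). KRT7, the other bile duct keratin, measured 7.07, 6.99 and 6.96 and lay between the bounds, as did MUC1, an epithelial mucin gene, at 6.87. Of the transport and secreted genes, CFTR at 6.39, SCTR at 6.59 and AQP1 at 6.76 were dim, and TFF3 at 7.52 and SPP1 at 7.48 lay between the bounds. EPCAM and CD24 stand in both the oncofetal and the biliary list.

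Bright-range genes were found in the epithelial list (5 of 6 measured) and among the mesenchymal filament, adhesion and matrix genes (4 of 7), against 27.7% of all genes. Of the whole mesenchymal list of 13, 10 exceeded the olfactory bound and 4 the wide bound, beside 68.7% and 27.7% of all genes. The median of that list was 7.50. KRT18 measured 11.22, 11.46 and 11.58, CLDN1, a tight junction gene, 10.93, 10.85 and 11.03, and CDH1 8.47, 8.51 and 8.50. VIM, the mesenchymal filament vimentin, measured 10.81, 10.59 and 10.57 (rank 198), CDH2, the N-cadherin gene, which hepatocytes also use, 10.68, 10.71 and 10.71 (rank 188), and FN1, which hepatocytes secrete, 11.92, 12.01 and 11.83. TGFBI, a matrix protein gene, averaged 10.26, while LOX at 8.03, SPARC at 7.87 and S100A4 at 7.08 lay between the bounds. Of 6 genes for factors that drive the change from epithelial to mesenchymal form, 0 exceeded the wide bound. ZEB1 averaged 7.50, and ZEB2 at 6.44 and SNAI2 at 6.59 were dim.

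**Figure D4:**
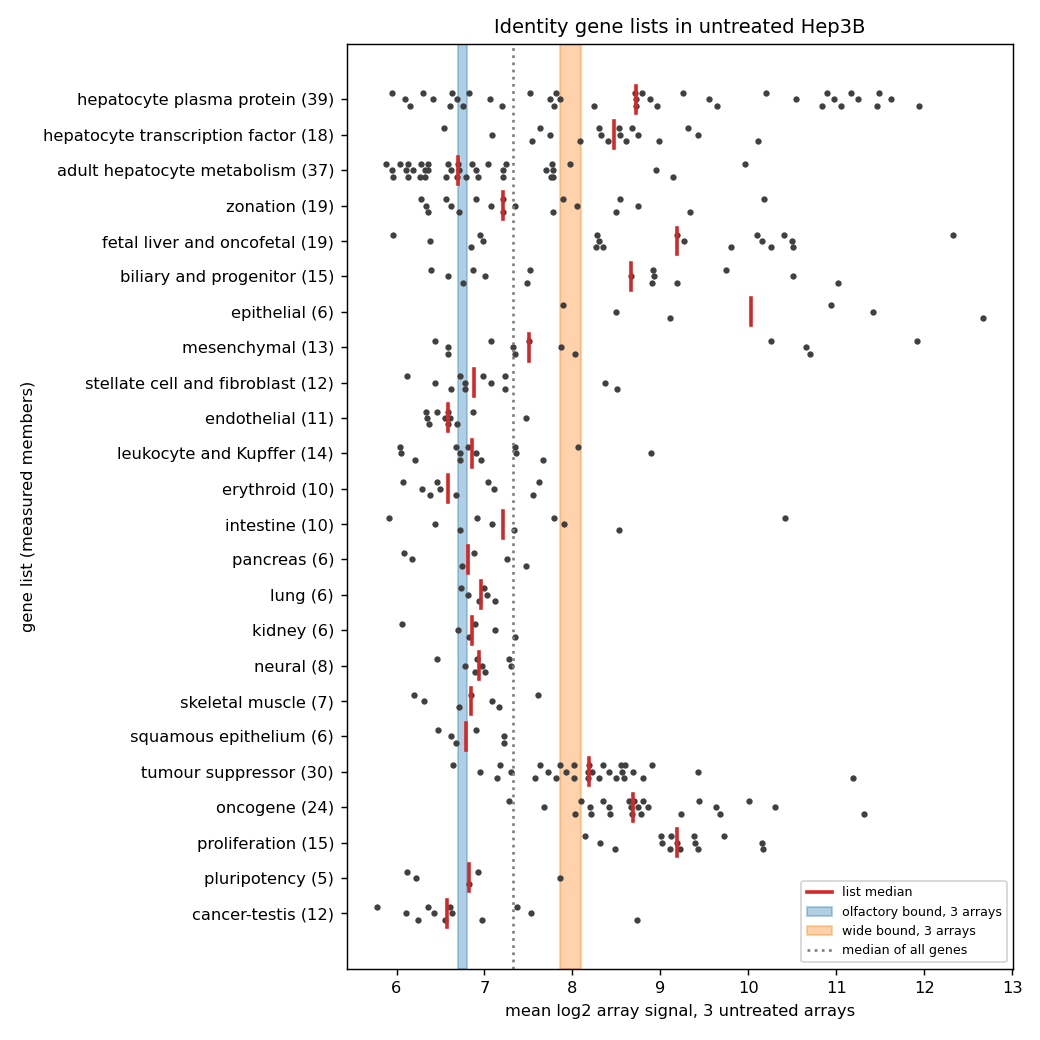
Mean log2 array signal over the 3 untreated arrays (x axis) of every measured member of 24 gene lists (y axis, measured members in brackets), with 1 point per gene and a red bar at each list's median. The shaded bands are the olfactory and the wide bound and the dotted line is the median of all genes (7.32). Medians lie over the wide bound in the plasma protein (8.72), transcription factor (8.47), oncofetal (9.18) and biliary (8.67) lists. So do those of the epithelial (10.03), tumour suppressor (8.18), oncogene (8.68) and proliferation (9.19) lists. That of adult metabolism (6.70) lies at the olfactory bound.

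Few markers of other cell types exceeded the wide bound, which 27.7% of all genes did. More exceeded the olfactory bound, which 68.7% of all genes did. Over it lay 2 of 11 endothelial, 8 of 14 leukocyte, 6 of 12 stellate cell and 4 of 10 erythroid markers. So did 7 of 10 intestinal, 4 of 12 cancer-testis and 3 of 5 pluripotency genes. Of 11 endothelial markers 0 exceeded the wide bound and their median was 6.59; PECAM1 averaged 6.61. Of 14 leukocyte and Kupffer cell markers 2 did, the lysozyme gene LYZ at 8.89 and the lysosomal gene CD68 at 8.06, while PTPRC, the common leukocyte antigen, was dim at 6.04 ± 0.042 (SD, n = 3). Of 12 stellate cell and fibroblast markers 2 did, COL1A1 at 8.51 and COL1A2 at 8.37, the chains of type I collagen, with COL3A1 at 7.23. Of 10 erythroid markers 0 did, and the embryonic globin gene HBE1 averaged 6.29. Of 10 intestinal markers 2 did, VIL1, which bundles actin in microvilli, at 10.39, 10.50 and 10.37, and CDH17, the liver-intestine cadherin, at 8.54, 8.55 and 8.48. Of 12 cancer-testis genes 1 did, BRDT, a testis bromodomain gene, at 8.77, 8.76 and 8.69. Of 5 pluripotency genes 0 did, and the highest was UTF1 at 7.86. A further bound, the 95th percentile of the 39 genes of unrelated organs, was added after seeing the data. It was exceeded by 1 of the endothelial, 3 of the leukocyte, 2 of the stellate cell and 2 of the erythroid markers. The same held for 4 of the intestinal, 1 of the cancer-testis and 1 of the pluripotency genes, and for 8339 of all 18417 genes.

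Proliferation genes were bright-range throughout. All 15 measured exceeded the wide bound, against 27.7% of all genes, from RRM2, a subunit of ribonucleotide reductase, at 8.14 to TOP2A, a topoisomerase of replicating cells, at 10.16. CCNB1, the mitotic cyclin, measured 10.10, 10.30 and 10.08, and MKI67, the Ki-67 antigen, 9.25, 9.22 and 9.19. BIRC5 has 2 probe sets, which averaged 8.31 and 6.42, so its place among the 15 depends on the probe set chosen.

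RB1, given as a marker of this line, encodes the retinoblastoma protein that holds E2F factors in check, and Hep3B is known as a line without that protein. Its probe set measured 8.72, 8.70 and 8.62, a mean of 8.68 ± 0.055 (SD, n = 3) at the 84.7th percentile, over the wide bound on every array. A gene-level signal does not show whether a transcript is whole or makes protein. Its nearest measured neighbours ITM2B and LPAR6 averaged 9.58 and 7.27. Of 8 neighbours 6 exceeded the olfactory bound and 3 the wide bound, where 68.7% and 27.7% of all genes did. The RB1 paralogs RBL1 and RBL2 averaged 8.18 and 7.81.

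Tumour suppressor genes, RB1 included, were mostly over the olfactory bound. Of 30 measured, 29 exceeded it and 17 exceeded the wide bound, against 68.7% and 27.7% of all genes, and the median was 8.18. CDKN2A and CDKN2B, neighbouring genes of inhibitors of the kinases that inactivate the retinoblastoma protein, averaged 8.35 ± 0.128 and 8.42 ± 0.089 (SD, n = 3 each). Of the 8 neighbours of CDKN2A, CDKN2B was the one over the wide bound, MTAP averaged 7.75 and IFNE 5.69. SMAD4, the mediator of TGF-beta signals, averaged 9.42 ± 0.105 (SD, n = 3) between ELAC1 at 7.30 and MEX3C at 8.69. AXIN1, a scaffold of the complex that degrades beta-catenin, measured 7.61, 7.66 and 7.46 and did not reach the wide bound. Of its 8 neighbours 4 did, among them MRPL28 next to it at 8.76, while PDIA2 on its other side averaged 6.80. RPS6KA3, a kinase gene mutated in some liver cancers, averaged 11.18 (rank 80). CDKN1A, the p21 gene, averaged 6.95, and FHIT, at a fragile site, was dim at 6.64.

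All 24 measured oncogenes exceeded the olfactory bound and 21 the wide bound, against 68.7% and 27.7% of all genes. CTNNB1, the beta-catenin gene, measured 11.28, 11.32 and 11.33 (rank 63), and NFE2L2, the oxidative stress factor gene, 10.40, 10.25 and 10.26. FGFR4, the liver receptor for the gut hormone FGF19, averaged 9.68 ± 0.058, and FGF19 itself 8.21 ± 0.070 (SD, n = 3 each), so ligand and receptor genes were both bright-range. MET averaged 9.63, EGFR 9.44, MYC 8.64 and YAP1, the target of the study's siRNA, 8.70 ± 0.077 (SD, n = 3). VEGFA at 8.09, TERT at 7.68 and MDM4 at 7.28 did not exceed the wide bound on all 3 arrays.

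The array also holds probe sets for 173 microRNA precursors, of which 42 exceeded the olfactory bound and 5 the wide bound, against 68.7% and 27.7% of all genes, and 0 lay in the top 10%. MIR122, chosen here after its value was seen, encodes the most abundant microRNA of adult liver, and MIR21 one that is common in tumour cells. Their mature sequences in RefSeq, at chr18:58451088-58451109 and chr17:59841273-59841294 on the plus strand of GRCh38.p14, are printed with the seed, bases 2 to 8, in capitals because the pair stands for liver and tumour microRNAs.
hsa-miR-122-5p: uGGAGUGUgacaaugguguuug
hsa-miR-21-5p: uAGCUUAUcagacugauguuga
The MIR122 precursor was dim at 6.34, 6.26 and 6.10. The MIR21 precursor measured 7.29, 7.27 and 7.45, between the bounds. Labelled cRNA of total RNA and probes for a precursor do not measure the mature microRNA, so these values say nothing of its amount.

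The 3 arrays differed little. The median SD of a gene over the 3 arrays was 0.065, 99% of genes had an SD of 0.203 or less, and 719 of 18417 genes had a range over 0.3 between their highest and lowest array. The array of untreated replicate 3 was the farthest from the middle value in 39.6% of genes, that of replicate 1 in 31.9% and that of replicate 2 in 28.5%. Without replicate 3 the number of genes with a range over 0.3 was 164, without replicate 1 it was 234 and without replicate 2 it was 491. Among genes over the olfactory bound, the widest ranges were those of FAM110D (8.14, 7.41 and 7.48), SNORD13P3 (8.66, 7.94 and 8.20) and COX6A1 (9.57, 9.93 and 10.26). CCL20, a chemokine gene, measured 8.52, 8.78 and 9.18, and SNORD45B, a small nucleolar RNA gene, 7.82, 7.73 and 7.16. FUNDC2 measured 8.35, 8.22 and 7.70, and DPY30, a subunit of histone methyltransferases, 8.85, 9.06 and 9.49. The next were BET1 (range 0.61), AOC3 (0.61) and KIAA1586 (0.60). Of 102 small RNA genes over that bound 8 had a range over 0.5 (7.84%), against 0.167% of the other genes over it.

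**Figure D5:**
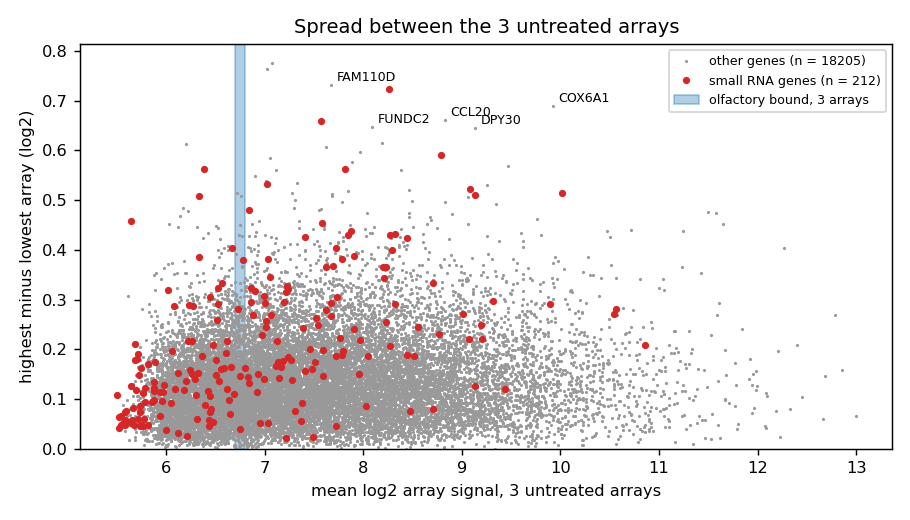
Difference between the highest and the lowest of the 3 untreated arrays (log2, y axis) against the mean log2 array signal (x axis), with 1 point per gene; 212 small RNA genes are in red and 18205 other genes in grey. Most genes lie below 0.3, and the highest labelled points are FAM110D at 0.73 and COX6A1 at 0.69.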

How the data were processed

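The authors deposited array signals that lie in the range of log2 values, and they were read as such. How they corrected background, summarised probes or normalized arrays is not given in the sources used here. Per the labels' protocols, biotinylated cRNA was made from total RNA by the standard Affymetrix method. Array medians over genes differed by 0.028, and no further scaling was applied. Of 33297 probe sets, 19460 had 1 gene, 1754 several and 12083 were not listed in the annotation supplied; the last 2 kinds were not ranked. Where a gene had several (769 genes), its probe set of highest mean signal across all 9 arrays stood for it.

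Signals were ranked by their mean over the 3 untreated arrays. A gene exceeded a bound where each array lay over the 95th percentile of the reference genes on that array. No groups were compared and no significance test was run; the main lists are described beside the shares over all genes. The members and lists were chosen with earlier results of these data known. Named genes were the 30 brightest, the brightest and dimmest of each list, 20 given genes, of which 6 were not analysed here, and the 10 widest ranges. Neighbouring genes and promoter, start and microRNA sequences came from RefSeq tables of GRCh38.p14, in which 14239 genes had a promoter; the files name no build of their own. The wide bound was an alternative, as were a 99th percentile, the mean over arrays, quantile normalization, averaged probe sets and leaving out each array; a bound from 6 other organ lists was added after seeing the data. The ranking script was checked on simulated signals; that check supports no value given here. Python 3.11.15, pandas 2.3.3, numpy 2.4.6 and matplotlib 3.10.9 were used. The number of arrays limits the precision.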

Additional observations from a re-analysis of the deposited data

How the results depend on the processing

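The counts over a bound changed with the reference that set it. Genes over it numbered 12656 with olfactory receptors, 5105 with taste receptor, keratin-associated protein and beta-defensin genes, and 8339 with the 39 genes of 6 other organs, a reference added after seeing the data; list members over it numbered 240, 130 and 169. The cause was not tested. With the 99th percentile 10896 genes and with the mean over arrays 13222 exceeded it. Quantile normalization gave 12656 and averaged probe sets 12655, and without 1 array the count was 12735 to 12993, with 241 to 245 list members. Of the 30 brightest genes, 25 stayed among the 30 brightest with averaged probe sets, 29 with quantile normalization and 29 to 30 without 1 array. Genes with a range over 0.3 numbered 719, and 164 to 491 without 1 array, where a range over fewer arrays is smaller by construction. GTTAAT was in 6.98% of promoters of the 100 brightest genes and 5.92% of the 200 brightest. No paired analysis was possible because no groups were compared and no result came from a test. Signals between the olfactory bound and 7.60 overlap those of genes of unrelated organs.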

Other observations

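The ranking covers named genes, and many of the brightest probe sets have no name in the annotation used here. Of 12083 probe sets that it does not list, 517 (4.28%) had a mean signal over 11 on the 3 untreated arrays, and the highest reached 13.69. Of 19460 probe sets with 1 gene, 130 (0.668%) did, with a highest mean of 12.99. Of 1754 probe sets with several genes, 33 (1.88%) did. The lowest mean was 1.73 among the probe sets that are not listed and 5.51 among those with 1 gene.

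Genes outside the lists also stood near the top. GSTP1, a glutathione transferase gene of bile duct cells and many tumours that adult hepatocytes use little, measured 11.69, 11.76 and 11.67 (rank 32). It and the next gene were named after their values were seen. MT2A, which encodes a metal-binding metallothionein, measured 11.48, 11.54 and 11.93 (rank 37), and its 3 probe sets ran from 8.98 to 11.65, so its rank depends on the probe set chosen.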
